A study of Mus musculus with 18 samples.

Results

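The genes described here are 44 genes of DNA replication and of the step from G1 into S phase, read as mRNA in mouse J774.1 cells. J774.1 is a macrophage line that divides in culture. The genes were chosen by symbol and by their known roles, from replication licensing to nucleotide supply, by a rule that uses no measured value. The choice was made with earlier results of these data known. All 44 were among the 18204 genes listed and among the 16383 tested. RNA sequencing covered 18 samples in 6 groups of 3 biological replicates. The groups were wildtype cells and Ctbp1/2dKO cells (written dKO), which carry edits in both genes for the C-terminal binding proteins CTBP1 and CTBP2. Each genotype received vehicle, 1.5 mM MTOB or 0.25 mM 4-Cl-HIPP for 4 h. MTOB is a keto acid of the methionine salvage pathway and 4-Cl-HIPP a chlorophenyl hydroxyimino propanoic acid, and both bind the dehydrogenase domain of the CTBPs. They were given at different doses, so their values are set side by side below without a comparison. One vehicle group (PBS/DMSO) served both inhibitors in each genotype. The dKO line was grown out from single edited cells, so clone and genotype cannot be told apart.

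Before S phase, origins are licensed when CDC6 and CDT1 load the MCM helicase, which CDC45 and the GINS complex then activate. The primase and the alpha, delta and epsilon polymerases copy DNA, with PCNA as the sliding clamp and the RFC proteins as its loader. RPA covers single-stranded DNA, FEN1 and LIG1 finish the lagging strand, and ribonucleotide reductase, thymidylate synthase and thymidine kinase supply nucleotides. Cyclin E with its kinase releases E2F factors from RB proteins, and E2F factors activate many of these genes. Their mRNAs are therefore commonly used to read the S-phase content of a culture. In bulk RNA such as this, fewer cells in S phase and less mRNA per cell cannot be told apart.

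Values were TPM, a transcript level scaled by transcript length and by library, so levels can be set side by side between genes. Every one of the 44 genes was detected in every sample. Mean levels over the 18 samples ran from 23.0 TPM for E2f2 to 429 TPM for Pcna, with a median of 72.2 TPM, and 18 genes exceeded 100 TPM. Replicates of a group differed little, with a median coefficient of variation of 4.76% over genes and groups. The sequencing depth of single samples is not given by TPM. The mean normalized count of the authors, taken over all samples, ran from 160 for Rpa3 to 3119 for Mcm5. Counting error was not computed from it. Both targeted genes had lower mRNA levels in dKO cells, where the study reports loss of both proteins by western blot. Ctbp1 was at 218 ± 18.1 TPM (SD, n = 3) in wildtype and 25.1 ± 0.64 TPM in dKO vehicle samples, and Ctbp2 was at 92.6 ± 4.57 TPM and 75.9 ± 3.13 TPM, with no overlap for either gene. All 8 macrophage markers examined were detected, but 5 of 8 differed between the genotypes under vehicle, against 10.7% of all genes tested. Of these 5, 3 were higher and 2 lower in dKO. Among them were Adgre1 (F4/80) at 29.1 ± 5.55 TPM in wildtype and 8.93 ± 1.04 TPM in dKO and Itgam (CD11b) at 15.8 ± 4.51 TPM and 47.9 ± 3.64 TPM. With MTOB 4 of 8 rose in wildtype and 3 of 8 in dKO cells, by up to 1.79 and 1.18 on the log2 scale. Of all genes tested, 3.8% and 3.04% rose. Of 12 markers of other cell types, 9 were not in the table, and Cdh5, Col1a1 and Pecam1 had means of at most 1.20 TPM in vehicle samples. Of these Pecam1, an endothelial marker that leukocytes also express, was higher in dKO vehicle samples (1.20 against 0.02 TPM). The part of these marker differences in the results below was not tested.

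Promoters of 4 genes are shown because these genes moved with MTOB in dKO cells, with genotype or with both, and because they differ in their E2F-type motifs. Mcm4 and Mcm5 encode helicase subunits, Gins3 a GINS subunit and Rrm1 the large subunit of ribonucleotide reductase. Each stretch is the 250 bases before the annotated start, 5′ to 3′ on the strand of the gene in GRCm39. Capitals mark matches to TTTCCCGC, TTTGGCGC, TTTCGCGC or TTTGCCGC on either strand.
Mcm4 (chr16:15455265-15455514, minus strand): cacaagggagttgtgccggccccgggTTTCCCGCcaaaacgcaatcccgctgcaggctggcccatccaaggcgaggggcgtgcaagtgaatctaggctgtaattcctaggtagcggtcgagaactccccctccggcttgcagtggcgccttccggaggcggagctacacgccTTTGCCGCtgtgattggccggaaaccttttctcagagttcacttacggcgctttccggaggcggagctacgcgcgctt
Mcm5 (chr8:75835890-75836139, plus strand): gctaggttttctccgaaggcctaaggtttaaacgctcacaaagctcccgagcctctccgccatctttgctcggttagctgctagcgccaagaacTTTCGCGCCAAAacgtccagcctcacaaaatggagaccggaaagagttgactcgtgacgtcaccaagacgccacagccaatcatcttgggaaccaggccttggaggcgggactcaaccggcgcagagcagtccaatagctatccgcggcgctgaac
Gins3 (chr8:96359831-96360080, plus strand): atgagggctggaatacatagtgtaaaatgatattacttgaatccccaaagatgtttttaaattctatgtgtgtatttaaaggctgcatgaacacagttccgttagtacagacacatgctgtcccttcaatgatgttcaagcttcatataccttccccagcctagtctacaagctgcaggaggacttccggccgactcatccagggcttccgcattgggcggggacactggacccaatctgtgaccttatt
Rrm1 (chr7:102090640-102090889, plus strand): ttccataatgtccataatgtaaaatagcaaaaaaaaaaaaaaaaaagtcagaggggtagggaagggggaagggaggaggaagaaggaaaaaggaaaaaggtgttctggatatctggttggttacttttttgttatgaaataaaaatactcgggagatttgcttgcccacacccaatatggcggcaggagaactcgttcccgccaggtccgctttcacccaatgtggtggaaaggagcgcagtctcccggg
Mcm4 held 2 separate matches and Mcm5 2 overlapping ones that read on opposite strands, and Gins3 and Rrm1 held none. In a window that also took in the first 50 transcribed bases, 13 of 44 genes (29.5%) held at least 1 such motif, against 3.36% of 16292 promoters of tested genes. TTTGGCGC alone was in 11 of 44 promoters and in 0.853% of all. CCAAT, a common promoter motif, was in 25 of 44 (56.8%) against 39.1% of all. Of the 14 genes that fell with MTOB in dKO, described below, 6 held an E2F-type motif, as did 7 of the other 30. Of the 9 genes higher in dKO than in wildtype vehicle cells, 4 held one, as did 9 of the other 35. Of the 6 genes that fell with MTOB in wildtype cells 0 held one, against 13 of the other 38. A match is a stretch of letters and not a measured binding site.

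After 4 h of MTOB, 6 of the 44 genes were lower in wildtype and 14 in dKO cells, among them Tk1, Lig1, Rfc1 and Rfc2 in both. Under vehicle 9 genes, led by Tk1, Gins3 and Cdt1, were higher in dKO than in wildtype cells. None passed with 4-Cl-HIPP, against 0.366% of all genes tested in wildtype and 0.501% in dKO cells. All changes were small, and no gene also passed the 1.5-fold limit (log2 0.585) in any of the 9 comparisons made. Of all genes tested, 2.01% passed that limit too with MTOB in wildtype and 1.63% in dKO cells, 0.14% and 0.153% with 4-Cl-HIPP, and 4.83%, 4.95% and 4.72% between genotypes under vehicle, MTOB and 4-Cl-HIPP. For the differences of the MTOB and 4-Cl-HIPP effects between genotypes the shares were 0.0427% and 0%. A gene is said to have passed, or to have risen or fallen, where limma gave a Benjamini-Hochberg adjusted p below 0.05 over all genes tested. With MTOB in wildtype cells, 6 of 44 genes fell (13.6%) against 3.46% of all genes tested, and 1 rose against 3.8%. In dKO cells, MTOB lowered 14 of 44 (31.8%) against a background of 3.54%, and 1 rose against 3.04%. Under vehicle, 9 of 44 (20.5%) were higher in dKO than in wildtype cells, against 7.01%, and 0 were lower against 3.72%. Genes of higher level pass more often. Among the 7045 genes whose mean normalized count reached that of the lowest of the 44, 6.77% fell with MTOB in wildtype and 6.96% in dKO cells, and 10.6% were higher in dKO cells under vehicle. The MTOB, 4-Cl-HIPP and genotype comparisons share their vehicle samples, so they are not independent of each other.

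The summed TPM of the 44 genes gives the levels as a whole. It was 4233, 4511 and 4328 in the wildtype vehicle samples, 4212, 4173 and 4321 with MTOB and 4436, 4467 and 4463 with 4-Cl-HIPP. In dKO cells it was 4821, 4740 and 4734 with vehicle, 4323, 4351 and 4388 with MTOB and 4923, 4780 and 4769 with 4-Cl-HIPP. The dKO MTOB samples lay below every dKO sample of the other treatments and within the range of the wildtype vehicle samples. Wildtype MTOB and vehicle samples overlapped. The genes made up between 0.417% and 0.492% of all TPM in a sample.

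**Figure D1:**
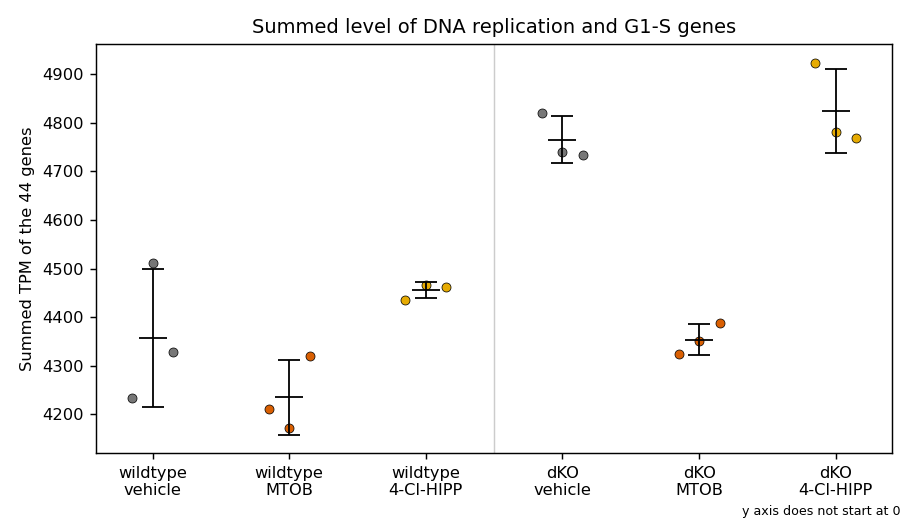
Summed TPM of the 44 DNA replication and G1-S genes in each of the 18 samples (points), with the mean and SD of each group of 3 (black bars), and with a y axis that does not start at 0. The dKO vehicle and 4-Cl-HIPP samples sit between 4734 and 4923, and the dKO MTOB samples between 4323 and 4388.

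The median log2 fold change over the 44 genes with MTOB was -0.03 in wildtype and -0.13 in dKO cells, against medians of -0.01 and -0.01 over all genes tested. In wildtype cells 26 of 44 genes (59.1%) had a negative log2 fold change, and in dKO cells 34 of 44 (77.3%), against 51.6% and 52.5% of all genes tested. Over the 7045 genes of at least the level of the lowest of the 44, the medians were -0.02 and -0.03 and 56.3% and 58.8% were negative, so that the wildtype values were near this background. The wildtype median moved from below to above 0, at 0.01, when the second wildtype vehicle or the second wildtype MTOB sample was left out. The heat map of log2 fold changes shows how the genes of each role spread around these medians.

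**Figure D2:**
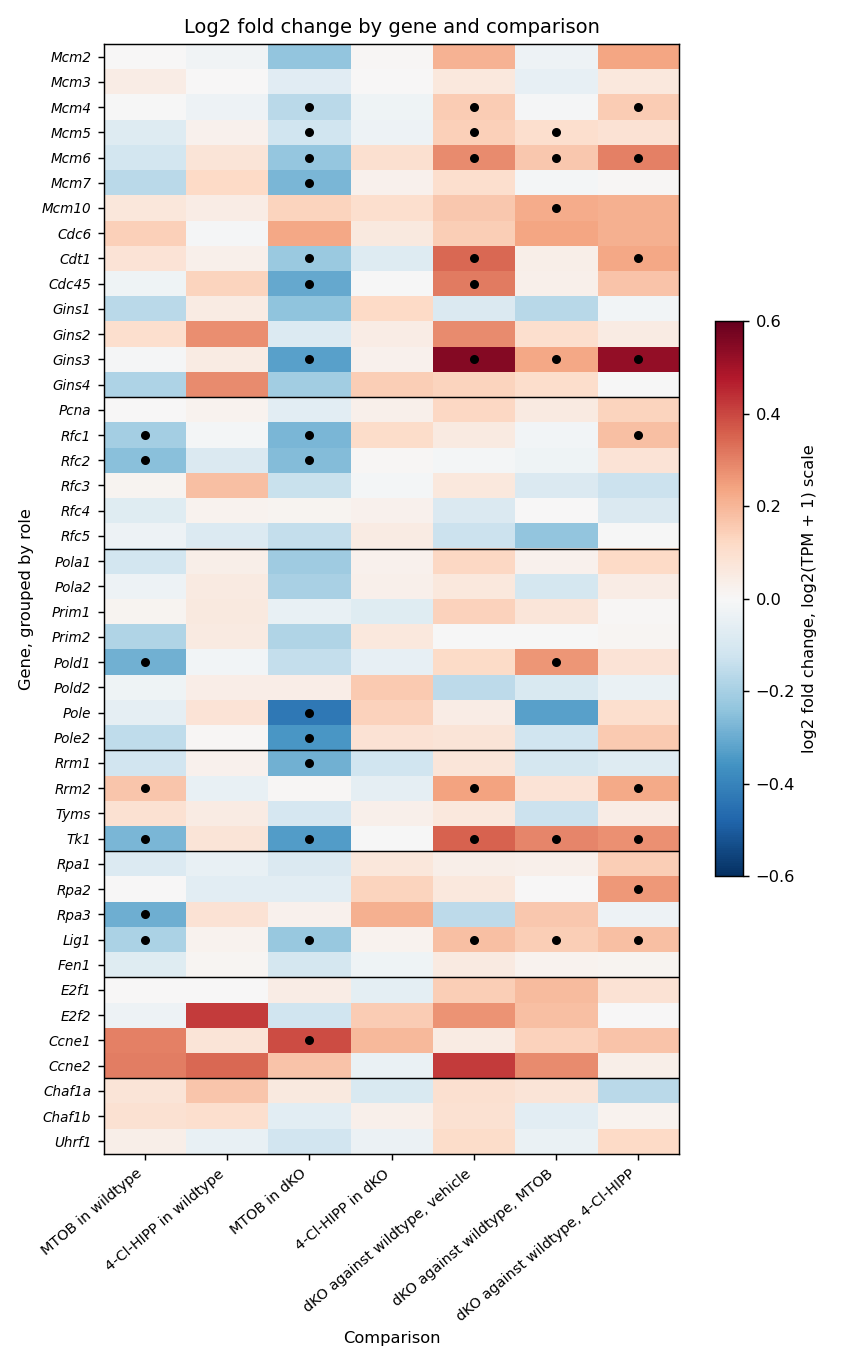
Log2 fold change on the log2(TPM + 1) scale of each of the 44 genes (rows, grouped by role) in 7 comparisons (columns), with black dots where the adjusted p was below 0.05. The MTOB in dKO column carries 15 dots, 7 of them among the 14 licensing and helicase genes, and both 4-Cl-HIPP columns carry 0.

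The licensing and helicase genes, with 14 of the 44 the largest role, held the largest count of changes in dKO cells. With MTOB, 7 of 14 fell there (median log2 fold change -0.22), against 3.54% of all genes tested. In wildtype cells 0 of 14 passed (median below 0.01 in size), against 3.46% of all genes lower and 3.8% higher. The difference between the genotypes passed for none of the 14. Under vehicle, 6 of 14 were higher in dKO than in wildtype cells (median 0.16), against 7.01% of all genes tested. These 6 were Mcm4, Mcm5, Mcm6, Cdt1, Cdc45 and Gins3. Of the 4 nucleotide supply genes, 2 fell with MTOB in dKO cells and 2 were higher in dKO vehicle cells. The MTOB and the genotype comparison use the same 3 dKO vehicle samples.

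Mcm6 (chr1:128259311-128287516, GRCm39), which encodes an MCM helicase subunit, was at 195, 205 and 201 TPM in wildtype vehicle and 250, 232 and 251 TPM in dKO vehicle samples, replicates in order. With MTOB it was at 185, 185 and 186 TPM in wildtype and 215, 209 and 199 TPM in dKO samples. The genotypes did not overlap under vehicle or under MTOB, and MTOB samples lay below vehicle samples in both. Mcm6 was higher in dKO vehicle cells (log2 fold change 0.29, SE 0.0383, adjusted p = 9.24e-05, limma) and fell with MTOB in dKO cells by 0.23 on the log2 scale (SE 0.0383, adjusted p = 0.0014, limma). In wildtype cells MTOB gave a log2 fold change of -0.11 that did not pass (adjusted p = 0.11, limma). With 4-Cl-HIPP it was at 211, 209 and 214 TPM in wildtype and 269, 250 and 264 TPM in dKO samples.

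Mcm7 (chr5:138162844-138170684), another helicase subunit, was at 190, 183 and 187 TPM in dKO vehicle and 153, 153 and 156 TPM in dKO MTOB samples, with no overlap, and fell by 0.27 on the log2 scale (SE 0.0471, adjusted p = 0.002, limma). In wildtype cells it was at 167, 183 and 172 TPM with vehicle and 147, 156 and 163 TPM with MTOB. These groups did not overlap either, yet the difference missed the threshold (adjusted p = 0.0523, limma). Mcm5 (chr8:75836140-75856231) had the highest level of this role, at 229, 251 and 236 TPM in wildtype vehicle, 222, 229 and 226 TPM in wildtype MTOB and 236, 245 and 246 TPM in wildtype 4-Cl-HIPP samples. Levels in dKO cells were 262, 262 and 266 TPM with vehicle, 245, 242 and 241 TPM with MTOB and 259, 255 and 260 TPM with 4-Cl-HIPP, so that every dKO vehicle sample lay above every other Mcm5 value. The gene was higher in dKO vehicle cells (log2 fold change 0.14, SE 0.0306, adjusted p = 0.00524, limma) and fell with MTOB there by 0.12 on the log2 scale (SE 0.0306, adjusted p = 0.0305, limma). Mcm4 (chr16:15440211-15455264) was at 119, 119 and 115 TPM in wildtype vehicle, 138, 125 and 130 TPM in dKO vehicle and 116, 118 and 117 TPM in dKO MTOB samples. Its dKO vehicle samples lay above both other groups, with a log2 fold change of 0.15 for genotype (adjusted p = 0.0114) and -0.16 for MTOB (adjusted p = 0.0134, limma). Both Mcm4 calls were lost without the first dKO vehicle sample (adjusted p = 0.0631 and 0.0645), and the genotype call also without the third wildtype vehicle sample (0.057). The MTOB call of Mcm5 was lost in 5 of 18 such fits (adjusted p up to 0.108).

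Cdt1 (chr8:123294703-123300293), the licensing factor that brings the helicase to origins, was at 99.1, 97.7 and 95.3 TPM in wildtype vehicle and 107, 101 and 101 TPM in wildtype MTOB samples. In dKO cells it was at 121, 120 and 131 TPM with vehicle and 110, 100 and 108 TPM with MTOB. The values moved up in wildtype and down in dKO cells with no overlap in either. Cdt1 fell in dKO cells by 0.22 on the log2 scale (SE 0.045, adjusted p = 0.00656, limma), and the log2 fold change of 0.08 in wildtype cells did not pass (adjusted p = 0.356, limma). It was higher in dKO than in wildtype vehicle cells (log2 fold change 0.34, SE 0.045, adjusted p = 7.48e-05, limma). Cdc45 (chr16:18599195-18631551), which activates the loaded helicase, was at 43.4, 47.6 and 42.4 TPM in wildtype vehicle, 55.8, 54.2 and 56 TPM in dKO vehicle and 45.4, 41.7 and 46.4 TPM in dKO MTOB samples. The dKO vehicle samples stood above both other groups, by 0.31 on the log2 scale against wildtype (adjusted p = 0.00175, limma), and MTOB lowered the gene by 0.31 on the log2 scale (SE 0.0577, adjusted p = 0.00376, limma).

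Gins3 (chr8:96360081-96392066), a subunit of the GINS complex, had the largest genotype difference of the 44 genes. It was at 24.9, 26.1 and 27.4 TPM in wildtype vehicle and 36.3, 40.4 and 39.3 TPM in dKO vehicle samples, which did not overlap (log2 fold change 0.55, SE 0.0704, adjusted p = 5.94e-05, limma). With MTOB it was at 23.5, 26 and 28.7 TPM in wildtype and 31.5, 30.6 and 29.9 TPM in dKO samples, and it fell in dKO cells by 0.32 on the log2 scale (SE 0.0704, adjusted p = 0.0104, limma). That fall was lost without the second dKO vehicle sample (adjusted p = 0.0539). The other 7 genes of this role, Mcm2, Mcm3, Mcm10, Cdc6, Gins1, Gins2 and Gins4, passed in none of these comparisons, with log2 fold changes from -0.24 (Gins1) to 0.23 (Cdc6, the loader of the helicase) with MTOB in dKO cells.

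**Figure D3:**
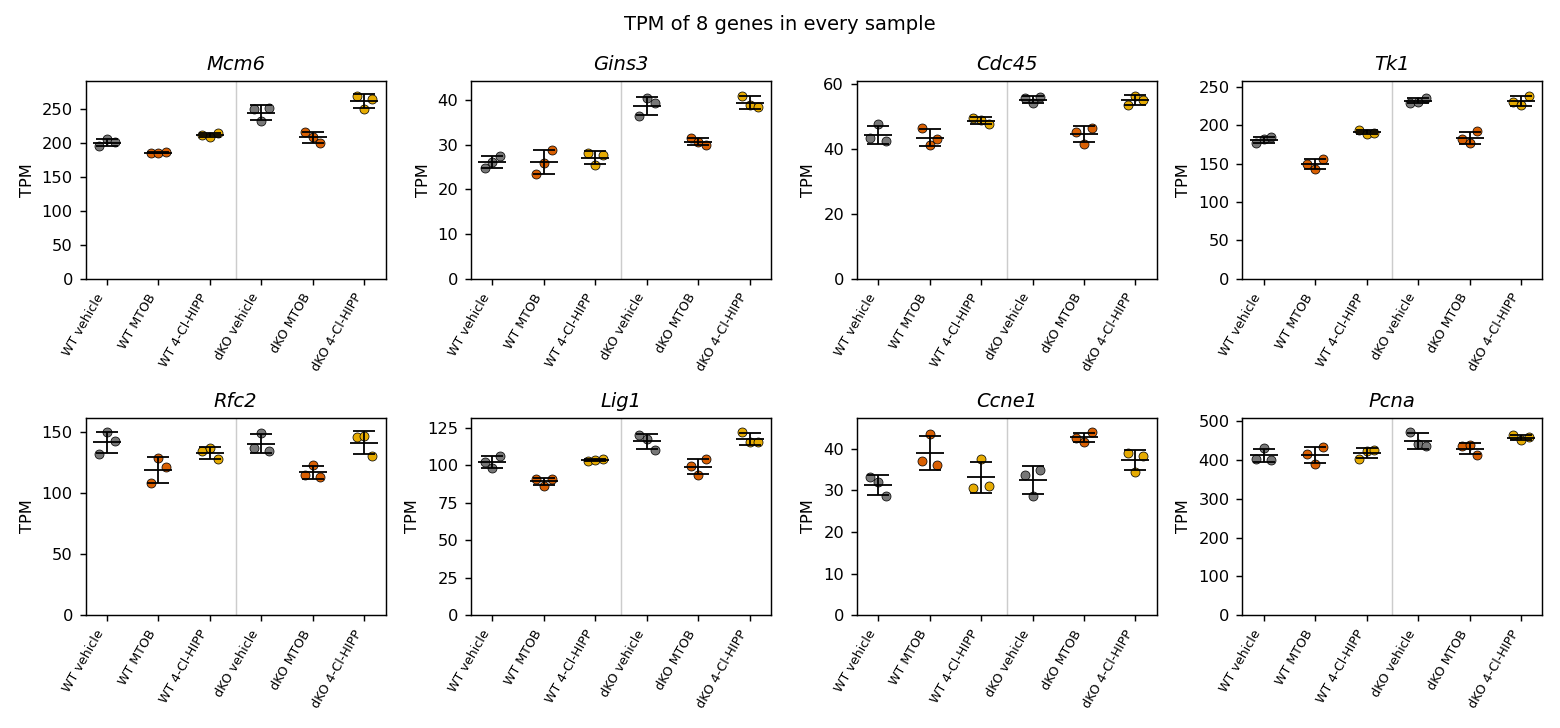
TPM of Mcm6, Gins3, Cdc45, Tk1, Rfc2, Lig1, Ccne1 and Pcna in every sample (points) with the mean and SD of each group of 3 (black bars), on axes that start at 0. Tk1 is below vehicle with MTOB in both genotypes, Ccne1 is above it, and the Pcna values with MTOB overlap with vehicle in each genotype.

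Among the nucleotide supply genes, Tk1 had the smallest p in both MTOB comparisons and under vehicle between genotypes. Tk1 (chr11:117702770-117717042), thymidine kinase of the salvage pathway, was at 177, 182 and 185 TPM in wildtype vehicle and 150, 143 and 156 TPM in wildtype MTOB samples. dKO cells gave 229, 231 and 236 TPM with vehicle and 182, 177 and 192 TPM with MTOB. MTOB and vehicle samples did not overlap in either genotype, and the genotypes did not overlap under vehicle. It fell with MTOB by 0.27 on the log2 scale (SE 0.0398, adjusted p = 0.000357, limma) in wildtype and by 0.34 on the log2 scale (SE 0.0398, adjusted p = 7.04e-05, limma) in dKO cells. Under vehicle it was higher in dKO cells (log2 fold change 0.36, SE 0.0398, adjusted p = 1.47e-05, limma).

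Rrm1 (chr7:102090890-102119709), the large subunit of ribonucleotide reductase, was at 194, 181 and 187 TPM in dKO vehicle and 148, 156 and 156 TPM in dKO MTOB samples, without overlap, and fell by 0.29 on the log2 scale (SE 0.0495, adjusted p = 0.00197, limma). In wildtype cells it was at 173, 179 and 183 TPM with vehicle and 151, 168 and 176 TPM with MTOB, which overlapped. Rrm2 (chr12:24757811-24764145), the small subunit, had the highest level of this role. It was at 262, 287 and 266 TPM in wildtype vehicle and 316, 292 and 309 TPM in wildtype MTOB samples, and rose (log2 fold change 0.17, SE 0.0471, adjusted p = 0.0417, limma). This rise was lost in 9 of 18 fits that left out a sample, with the highest adjusted p (0.154) without the first wildtype vehicle sample. In dKO cells Rrm2 was at 321, 312 and 333 TPM with vehicle, 307, 322 and 343 TPM with MTOB and 319, 302 and 307 TPM with 4-Cl-HIPP, and in wildtype 4-Cl-HIPP samples at 272, 258 and 261 TPM. It was higher in dKO than in wildtype vehicle cells (log2 fold change 0.24, SE 0.0471, adjusted p = 0.00251, limma), without overlap. Tyms, thymidylate synthase, passed in none of these comparisons.

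With MTOB, Pold1 passed in wildtype and Pole and Pole2 in dKO cells among the polymerase and primase genes, and Rfc1 and Rfc2 passed in both genotypes among the clamp genes. Pold1 (chr7:44182168-44198349), the catalytic subunit of polymerase delta, was at 85.4, 90.8 and 93.3 TPM in wildtype vehicle and 74.2, 72 and 73.4 TPM in wildtype MTOB samples and fell without overlap by 0.29 on the log2 scale (SE 0.0549, adjusted p = 0.00353, limma). The dKO samples were at 87.8, 102 and 103 TPM with vehicle and 90.5, 88.2 and 85.9 TPM with MTOB, which overlapped (adjusted p = 0.162, limma). Pold2, a further polymerase delta subunit and the most abundant of this role, was at 102, 119 and 102 TPM in wildtype vehicle, 110, 93.9 and 114 TPM in wildtype MTOB and 127, 103 and 103 TPM in wildtype 4-Cl-HIPP samples. Levels in dKO cells were 96.9, 114 and 80.5 TPM with vehicle, 115, 90.4 and 93.5 TPM with MTOB and 89.7, 125 and 111 TPM with 4-Cl-HIPP. All groups of Pold2 overlapped. Pole and Pole2, catalytic and accessory subunits of polymerase epsilon, fell with MTOB in dKO cells. Pole went from 34.8, 41.2 and 38.6 to 25.9, 26.8 and 32 TPM and Pole2 from 29.9, 27.7 and 29.6 to 22.2, 21.3 and 24.4 TPM, each without overlap, with log2 fold changes of -0.43 (adjusted p = 0.0407) and -0.35 (adjusted p = 0.0211, limma). The Pole call was lost in 7 and the Pole2 call in 4 of 18 fits that left out a sample (adjusted p up to 0.151 and 0.0777). The 4 primase and polymerase alpha genes Pola1, Pola2, Prim1 and Prim2 did not pass, with log2 fold changes from -0.21 to -0.05 with MTOB in dKO cells.

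Rfc1 (chr5:65418916-65493155), the large subunit of the clamp loader, was at 60.6, 55.8 and 60.8 TPM in wildtype vehicle and 51.6, 49.8 and 51.8 TPM in wildtype MTOB samples. In dKO cells it was at 62.7, 60.2 and 61.2 TPM with vehicle and 47.6, 51.8 and 52.3 TPM with MTOB. Neither pair overlapped, and Rfc1 fell by 0.21 on the log2 scale (SE 0.0511, adjusted p = 0.0218, limma) in wildtype and by 0.28 on the log2 scale (SE 0.0511, adjusted p = 0.0035, limma) in dKO cells. Rfc2 (chr5:134610220-134630661), a small subunit, went from 132, 150 and 143 to 108, 129 and 121 TPM in wildtype and from 137, 149 and 135 to 115, 123 and 113 TPM in dKO cells. Both changes were close to the threshold (log2 fold changes -0.25 and -0.26, adjusted p = 0.0491 and 0.0419, limma). Pcna, the clamp itself and the most abundant of the 44 genes, was at 402, 431 and 401 TPM in wildtype vehicle, 416, 389 and 432 TPM in wildtype MTOB and 402, 424 and 425 TPM in wildtype 4-Cl-HIPP samples. dKO cells gave 471, 439 and 434 TPM with vehicle, 434, 438 and 412 TPM with MTOB and 463, 450 and 459 TPM with 4-Cl-HIPP. The lowest dKO vehicle value lay just above the highest wildtype vehicle value, and the difference did not pass (adjusted p = 0.104, limma). Its MTOB effects had 95% intervals of -0.09 to 0.10 in wildtype and -0.16 to 0.03 in dKO cells on the log2 scale. Rfc3, Rfc4 and Rfc5 passed in none of the comparisons.

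Lig1 (chr7:13011239-13045350), the ligase that joins Okazaki fragments, fell with MTOB in both genotypes. It was at 103, 98 and 106 TPM in wildtype vehicle and 90.8, 86.5 and 90.7 TPM in wildtype MTOB samples, and at 120, 118 and 110 and 99.6, 93.7 and 104 TPM in dKO samples. No MTOB sample reached a vehicle sample of its genotype. The falls were 0.19 on the log2 scale (SE 0.0452, adjusted p = 0.0161, limma) in wildtype and 0.23 on the log2 scale (SE 0.0452, adjusted p = 0.00603, limma) in dKO cells. It was also higher in dKO vehicle cells (log2 fold change 0.18, SE 0.0452, adjusted p = 0.0159, limma), a call lost without the second wildtype vehicle sample (0.0798) or without the first or second dKO vehicle sample (0.0766 and 0.0632). The RPA genes encode the 3 subunits that coat single-stranded DNA. Rpa3 was at 86, 89.5 and 87.3 TPM in wildtype vehicle and 69.8, 68.8 and 75.3 TPM in wildtype MTOB samples and fell without overlap by 0.29 on the log2 scale (SE 0.077, adjusted p = 0.0294, limma). In dKO cells Rpa3 was at 89.3, 75 and 71.9 TPM with vehicle and 79.4, 76.5 and 83.9 TPM with MTOB, which overlapped. Rpa1, the most abundant of this role, was at 154, 176 and 169 TPM in wildtype vehicle, 151, 162 and 158 TPM in wildtype MTOB and 159, 161 and 163 TPM in wildtype 4-Cl-HIPP samples. The dKO samples were at 177, 170 and 164 TPM with vehicle, 149, 167 and 166 TPM with MTOB and 184, 176 and 175 TPM with 4-Cl-HIPP, so that within each genotype the MTOB samples overlapped with vehicle. Fen1, the flap endonuclease, did not pass in any comparison.

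Of the E2F and cyclin E genes, 1 rose with MTOB. Ccne1 (chr7:37797404-37808264), cyclin E1, was at 33.7, 28.7 and 34.9 TPM in dKO vehicle and 42.4, 41.7 and 43.9 TPM in dKO MTOB samples and rose without overlap (log2 fold change 0.39, SE 0.0977, adjusted p = 0.0249, limma). In wildtype cells it was at 33.2, 31.9 and 28.6 TPM with vehicle and 36.9, 43.5 and 36 TPM with MTOB, also without overlap, but did not pass (log2 fold change 0.30, adjusted p = 0.0805, limma). The dKO rise was lost without the second dKO vehicle sample (0.121) or without the first or the third dKO MTOB sample (0.0608 and 0.0748). Ccne2, cyclin E2, was at 30.3, 44.5 and 36 TPM in wildtype vehicle, 50.6, 41.4 and 44.7 TPM in wildtype MTOB, 50.1, 47 and 50.7 TPM in dKO vehicle and 49.2, 62.4 and 55.6 TPM in dKO MTOB samples, and did not pass in any comparison. In dKO 4-Cl-HIPP samples it was at 43, 42.7 and 59.8 TPM, with 1 sample well above the other two. E2f1 and E2f2, activating E2F factors, did not pass with MTOB (log2 fold changes 0.00 and -0.03 in wildtype, 0.05 and -0.12 in dKO cells). Uhrf1, which reads hemimethylated DNA behind the fork and was the most abundant of the 3 chromatin genes, was at 152, 149 and 150 TPM in wildtype vehicle and 152, 160 and 151 TPM in wildtype MTOB samples. Levels in dKO cells were 168, 158 and 161 TPM with vehicle, 141, 155 and 154 TPM with MTOB and 162, 157 and 157 TPM with 4-Cl-HIPP, and in wildtype 4-Cl-HIPP samples at 147, 145 and 146 TPM. Neither Uhrf1 nor the histone chaperone genes Chaf1a and Chaf1b passed.

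Of the genes that passed with MTOB, 4 fell in both genotypes, namely Tk1, Lig1, Rfc1 and Rfc2, out of 16 that fell in either. The MTOB comparisons of the genotypes share no sample. Over the 44 genes their log2 fold changes had a Pearson r of 0.637 and a Spearman rho of 0.604, which describes these genes and carries no test, since genes of one sample are not independent. Both effects were negative for 23 genes and positive for 7. The correlations and these counts were not computed over all genes. The dKO effect was the lower for 36 of 44 genes (81.8%), against 51.8% of all genes tested. Tested directly, the difference between the genotypes passed for none of the 44 genes (0 of 44 against 0.0916% of all genes, with 10 genes at an unadjusted p below 0.05 against 6.89% of all). The smallest p values belonged to Cdt1 with a difference of 0.31 (wildtype minus dKO, 95% interval 0.17 to 0.44, adjusted p = 0.127), Cdc45 with 0.28 (0.11 to 0.45, adjusted p = 0.399) and Gins3 with 0.32 (0.10 to 0.53, adjusted p = 0.491, limma). In wildtype MTOB samples Cdc45 was at 46.4, 41.1 and 43.2 TPM, which overlapped with its vehicle samples.

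**Figure D4:**
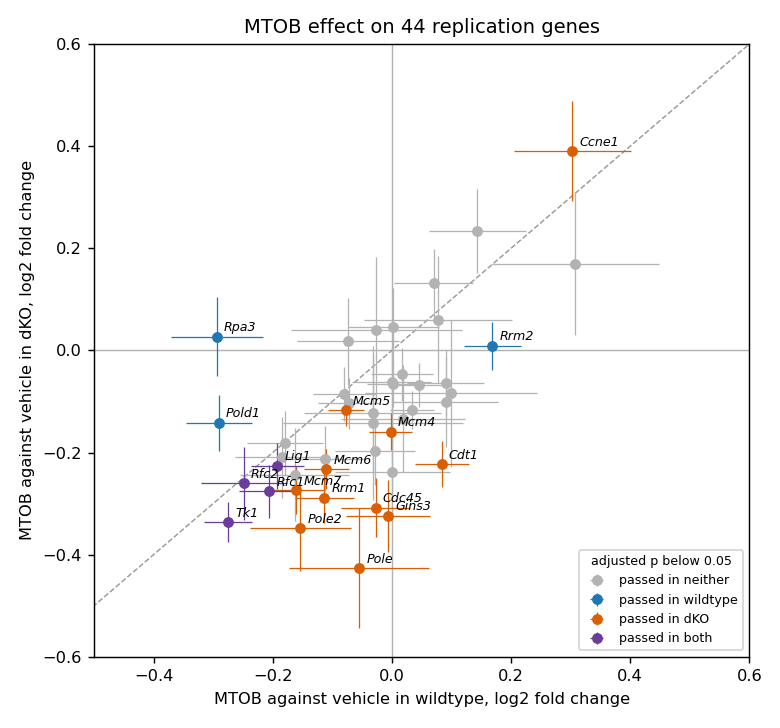
Log2 fold change with MTOB in wildtype (x axis) and in dKO cells (y axis) for each of the 44 genes, with bars of 1 SE, colours for the genotype in which the adjusted p was below 0.05 and a dashed line of equal effects. Most points, 36 of 44 (81.8%, against 51.8% of all genes tested), lie below the dashed line. Tk1, Lig1, Rfc1 and Rfc2 passed in both genotypes.

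How far these calls depend on single samples differed between the comparisons. Leaving out each of the 18 samples in turn, Tk1 and Pold1 passed every time with MTOB in wildtype cells, and the count of 7 fell to between 2 and 4 without the first or the third wildtype vehicle sample or the first or second wildtype MTOB sample. The highest adjusted p of the other wildtype calls in these fits was 0.0767 for Lig1, 0.0895 for Rfc1, 0.106 for Rpa3, 0.154 for Rrm2 and 0.205 for Rfc2, which was lost in 15 of 18. With MTOB in dKO cells 8 of 15 genes passed every time, namely Tk1, Mcm6, Mcm7, Rrm1, Rfc1, Cdc45, Cdt1 and Lig1, and Rfc2 was lost in 9 of 18 fits (adjusted p up to 0.168). Under vehicle 7 of 9 genes passed every time between the genotypes, all but Mcm4 and Lig1. The fit uses the spread of all 6 groups. With the spread of the 2 groups compared alone, 2 genes passed with MTOB in wildtype, 3 with MTOB in dKO cells (Tk1, Rrm1 and Mcm7) and 6 between the genotypes under vehicle.

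No replication gene passed with 4-Cl-HIPP in either genotype. The counts were 0 of 44 against 0.324% of all genes higher and 0.0427% lower in wildtype cells, and 0 of 44 against 0.403% higher and 0.0977% lower in dKO cells. Unadjusted p was below 0.05 for 5 genes in wildtype and 4 in dKO cells, against 8.19% and 8.47% of all genes. The medians were 0.04 and 0.03 against 0.01 and 0.00 over all genes, and 33 and 29 of 44 genes (75% and 65.9%) were above 0 against 53.3% and 51.9%. The 95% intervals of the 44 genes reached from -0.40 to 0.66 in wildtype and from -0.36 to 0.46 in dKO cells on the log2 scale.

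In wildtype cells the smallest p values with 4-Cl-HIPP belonged to E2f2, Gins4, Mcm7 and Ccne2, none of which passed. E2f2 was at 19.3, 18 and 21.5 TPM with vehicle and 23.7, 25.1 and 31.3 TPM with 4-Cl-HIPP, without overlap (log2 fold change 0.42, adjusted p = 0.202, limma). Gins4, a further GINS subunit, was at 40.3, 43.6 and 36.4 and 47.8, 49.6 and 49.4 TPM, Mcm7 at 167, 183 and 172 and 194, 198 and 177 TPM, and Ccne2 at 30.3, 44.5 and 36 and 45.1, 48.7 and 46.2 TPM. Gins4 and Ccne2 did not overlap between the groups, and Mcm7 did. Their adjusted p values were 0.209, 0.487 and 0.519 (limma). In dKO cells the genes were Rpa3, Mcm6, Rrm1 and Rfc1, with adjusted p values from 0.399 to 0.586 (limma). Rpa3 was at 89.3, 75 and 71.9 TPM with vehicle and 93.3, 89.9 and 89.9 TPM with 4-Cl-HIPP, and Rrm1 at 194, 181 and 187 and 179, 172 and 166 TPM, neither with overlap. Rfc1 was at 62.7, 60.2 and 61.2 and 67.3, 69.7 and 62.1 TPM, with overlap. The difference of the 4-Cl-HIPP effects between genotypes passed for 0 of 44 genes against a background of 0%, and 0 genes had an unadjusted p below 0.05 against 4.48% of all. The smallest p values were those of Rrm1 (0.15, wildtype minus dKO), Rpa2 (-0.19) and Ccne2 (0.38). Rpa2 was at 68.3, 70.8 and 71.4 TPM in wildtype vehicle and 75.2, 64.5 and 62.5 TPM in wildtype 4-Cl-HIPP samples. In dKO cells it was at 77.8, 71.7 and 71 and 79.9, 83.9 and 78.1 TPM.

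Under each inhibitor, as under vehicle, the genes that passed between genotypes were higher in dKO cells. Under MTOB 7 of 44 genes were higher (15.9%) against 6.98% of all genes and 0 were lower against 4.18%, and the median log2 difference was 0.03, against 0.11 under vehicle and 0.08 under 4-Cl-HIPP. Under 4-Cl-HIPP 9 of 44 were higher (20.5%) against 6.6%, and 0 were lower against 3.63%. Among the 7045 genes of at least the level of the lowest of the 44, 10.1% were higher under MTOB and 9.98% under 4-Cl-HIPP. In that set 6.08% and 4.94% were lower. Over the 3 treatments 13 genes were higher in dKO cells at least once, and Gins3, Lig1, Mcm6 and Tk1 under each. Under MTOB the Gins3 call was lost in 15 and the Lig1 call in 14 of 18 fits that left out a sample. Of the 7 under MTOB 3 (Tk1, Pold1 and Mcm6) passed whichever sample was left out, and 3 to 6 genes passed in all. Of the 9 under 4-Cl-HIPP 5 did (Mcm6, Cdt1, Gins3, Rrm2 and Tk1), and 6 to 11 genes passed in all. Genes that passed under an inhibitor and not under vehicle were Mcm10 and Pold1 under MTOB (0.22 and 0.26), and Rpa2 and Rfc1 under 4-Cl-HIPP (0.26 and 0.18 on the log2 scale). Whether the genotype difference itself changed with treatment is what the tests above between the genotypes asked, and none of the 44 genes passed them.

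A further list of 39 replication genes outside the 44 held origin, checkpoint and other fork genes and also the cyclin gene Ccna2. With MTOB, 4 of 39 (10.3%) fell in wildtype cells against 3.46% of all genes tested, and 1 rose against 3.8%. In dKO cells 6 of 39 (15.4%) fell against 3.54%. Among the 7045 genes of at least the level of the lowest of the 44, 6.77% fell in wildtype and 6.96% in dKO cells. Dnmt1, the maintenance DNA methyltransferase, was at 224 ± 6.60 TPM in wildtype vehicle and 186 ± 2.35 TPM in wildtype MTOB samples, and at 245 ± 3.32 TPM and 187 ± 9.53 TPM in dKO samples. It fell by 0.27 on the log2 scale (SE 0.0338, adjusted p = 0.000101, limma) and by 0.39 on the log2 scale (SE 0.0338, adjusted p = 2.57e-06, limma). Ccna2, cyclin A2, fell by 0.32 on the log2 scale (SE 0.0348, adjusted p = 2.75e-05, limma) in wildtype and by 0.38 on the log2 scale (SE 0.0348, adjusted p = 4.35e-06, limma) in dKO cells. Orc1, which marks origins, was the gene that rose in wildtype cells (log2 fold change 0.50, SE 0.12, adjusted p = 0.0186, limma). Under vehicle 7 of 39 (17.9%) were higher in dKO cells against 7.01% of all genes tested, and 1 was lower against 3.72%. Among the higher genes was Rnaseh2a (log2 fold change 0.43, SE 0.0881, adjusted p = 0.00383, limma). The lower gene was Ccna2 (log2 fold change -0.17, SE 0.0348, adjusted p = 0.00349, limma). None of the 39 passed with 4-Cl-HIPP in either genotype, against 0.366% of all genes tested in wildtype and 0.501% in dKO cells.

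Mitosis genes were read as a list of 20. With MTOB 14 of 20 (70%) fell in wildtype and 12 of 20 (60%) in dKO cells, against 3.46% and 3.54% of all genes tested. The medians were -0.29 and -0.24. Under vehicle 9 of 20 (45%) were lower in dKO than in wildtype cells (median -0.18), against 3.72% of all genes tested. Of the 44 replication genes, 9 were higher there. Cdc20 and Kif20a, an activator of the anaphase-promoting complex and a kinesin of cytokinesis, had the smallest p in wildtype cells (log2 fold changes -0.39 and -0.37). Cdc20 was at 169 ± 0.90 TPM with vehicle and 129 ± 1.12 TPM with MTOB. Top2a, topoisomerase II alpha, was at 286 ± 16.1 TPM in dKO vehicle and 230 ± 10.9 TPM in dKO MTOB samples. None of the 20 passed with 4-Cl-HIPP, against 0.366% of all genes tested in wildtype and 0.501% in dKO cells. The lists were not tested against each other.

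**Figure D5:**
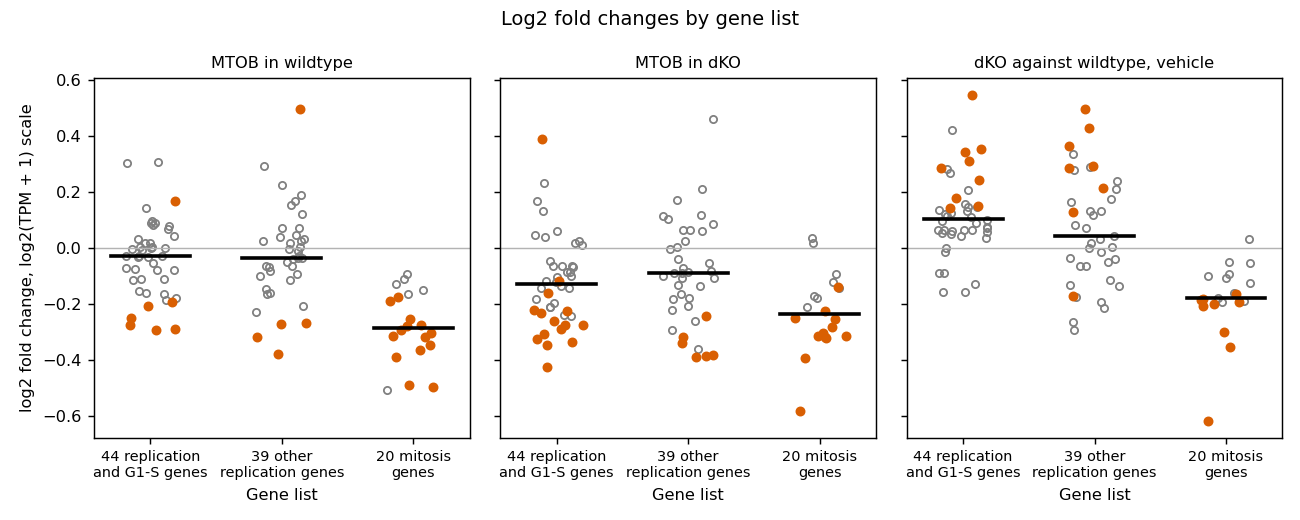
Log2 fold changes on the log2(TPM + 1) scale of single genes (points, filled where the adjusted p was below 0.05) in 3 lists and 3 comparisons, with black lines at the medians. The mitosis genes have medians of -0.29 and -0.24 with MTOB, where the 44 replication and G1-S genes have -0.03 and -0.13, and -0.18 between genotypes, where the 44 have 0.11.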

How the data were processed

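RNA was sequenced from 18 samples of J774.1 cells, 3 in each of 6 groups taken from the labels. Per the study's methods, the authors ran Salmon 1.9.0 (GC bias option) on the Gencode mouse transcriptome of GRCm39, imported gene-level estimates by tximport and used DESeq2 1.44.0. The kit does not mark strand, so overlapping antisense transcripts cannot be told apart. The deposited file lists 18204 genes. Its unit is TPM, under a header of scaled TPM by the authors, and samples total 999766 to 999897 TPM. Another column holds a signal, the mean normalized count that the authors computed with DESeq2. Its log2 fold change and adjusted p-value columns hold the authors' own comparisons and were not used. Per-sample depth is not given by TPM.

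A gene was tested if its mean normalized count lay above the 10th percentile (0.222), which left 16383 genes. They were fitted on log2(TPM + 1) with the 6 group means over all 18 samples in limma 3.58.1 (R 4.3.3, with version 1.17.8 of data.table), moderated by empirical Bayes with a trend of the variance on that mean. Fold changes on this scale understate those of low genes. Each comparison was adjusted over its 16383 genes by Benjamini-Hochberg, and 95% intervals are unadjusted. The procedure was also run on simulated counts drawn with the same spread setting for every gene. The error rate of the calls reported here was not measured by it. p-values measure the spread between the labelled biological replicates. Same-numbered samples of different groups had correlations of deviations from -0.0866 to 0.0895, so the numbers were not taken as pairs. Replicates correlated at r = 0.983 to 0.987.

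The 44 genes, the other lists and the tests were chosen with earlier results of these data known. Values in every sample are given for at most 8 passing genes per inhibitor comparison and for genotype under vehicle (or the 4 with the smallest p), for the 3 genes with the smallest p of each difference between genotypes, and for the most abundant gene of each of the 7 roles. From other lists the 2 passing genes with the smallest p are named. Values of Pole, Pole2 and Ccne1, and the names Orc1, Cdkn2c and Cdkn2d, were added after their values were seen. Gene positions and promoters come from GRCm39 with the Gencode annotation supplied, in windows from 250 bases before to 50 after the canonical start. Tables and plots used Python 3.11.15, pandas 2.3.3 and matplotlib 3.10.9.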

Additional observations from a re-analysis of the deposited data

How the results depend on the processing

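Counts of the 44 genes that passed are given first. With MTOB in wildtype cells (7 in the fit reported) 3 passed without the variance trend and 2 with the spread of the compared groups alone, and with MTOB in dKO cells (15) 3 passed with the compared groups alone. For dKO against wildtype under MTOB (7) 4 passed with a pseudocount of 0.1, 4 with median-ratio scaling, 4 with quantile normalization, 2 without the trend and 2 with the compared groups alone. Leaving out 1 sample at a time gave 2 to 7 with MTOB in wildtype, 10 to 15 with MTOB in dKO cells, and 8 to 10 under vehicle, 3 to 6 under MTOB and 6 to 11 under 4-Cl-HIPP for the genotype, where up to 1 gene under vehicle and up to 2 under MTOB passed as lower in dKO cells. Both 4-Cl-HIPP comparisons and both differences between genotypes stayed at 0. Same-numbered samples shared a number only. A replicate block gave 6 with MTOB in wildtype and 15 in dKO cells, and 9, 6 and 8 for the genotype under vehicle, MTOB and 4-Cl-HIPP.

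The median log2 fold change of the 44 genes became -0.0096 (MTOB in wildtype), -0.099 (MTOB in dKO) and 0.084 (genotype, vehicle) with median-ratio scaling, and 0.086, 0.0023 and 0.065 (genotype under vehicle, MTOB and 4-Cl-HIPP) with quantile normalization. Without 1 sample it ran from -0.069 to 0.0099 (MTOB in wildtype), -0.148 to -0.119 (MTOB in dKO), 0.015 to 0.055 and 0.0093 to 0.040 (4-Cl-HIPP in wildtype and dKO), 0.088 to 0.117, 0.0031 to 0.036 and 0.084 to 0.12 (genotype under vehicle, MTOB and 4-Cl-HIPP), 0.063 to 0.108 (difference of the MTOB effects) and 9.8e-05 to 0.031 (difference of the 4-Cl-HIPP effects). Of 47 calls of single genes, 27 were lost with the compared groups alone, 19 without the trend, 7 with each of the other scalings and 4 with the block. The causes of these losses were not tested. No named log2 fold change changed sign under these alternatives. Depth per sample is unknown, and a limit from counting was not computed from the mean normalized counts.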

Other observations

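The CDK inhibitors and D cyclins, which act ahead of the E2F genes, were read as a list of 10, of which 7 were tested and Cdkn1c, Cdkn2a and Cdkn2b were not in the table. With MTOB 2 of 7 rose in each genotype, against 3.8% of all genes tested in wildtype and 3.04% in dKO cells. Falls passed for 0 of 7, against 3.46% and 3.54%. The medians of the 7 were -0.05 and -0.06 on the log2 scale. Cdkn1a (p21), an inhibitor of cyclin-dependent kinases and a textbook p53 target, was at 58.2 ± 2.69 TPM (SD, n = 3) in wildtype vehicle and 94.2 ± 6.16 TPM in wildtype MTOB samples. In dKO cells it was at 80.7 ± 12 TPM with vehicle and 122 ± 1.26 TPM with MTOB. It rose with MTOB past the 1.5-fold limit in wildtype (log2 fold change 0.68, SE 0.0822, adjusted p = 6.52e-05, limma) and in dKO cells (log2 fold change 0.60, SE 0.0822, adjusted p = 0.000287, limma), and it was higher in dKO than in wildtype vehicle cells (log2 fold change 0.46, SE 0.0822, adjusted p = 0.00139, limma). Ccnd1, cyclin D1, was at 265 ± 4.42 TPM in wildtype vehicle and 356 ± 11.5 TPM in wildtype MTOB samples and rose (log2 fold change 0.42, SE 0.0396, adjusted p = 4.91e-06, limma). The dKO samples were at 206 ± 6.36 TPM with vehicle and 234 ± 13.7 TPM with MTOB and Ccnd1 rose (log2 fold change 0.18, SE 0.0396, adjusted p = 0.00963, limma). Under vehicle dKO cells had less Ccnd1 than wildtype cells (log2 fold change -0.36, SE 0.0396, adjusted p = 1.1e-05, limma), and likewise less Cdkn2c and Cdkn2d. In that comparison 3 of 7 were lower against 3.72% of all genes tested, and 1 was higher against 7.01%. None of the 7 passed with 4-Cl-HIPP in either genotype, against 0.366% of all genes tested in wildtype and 0.501% in dKO cells. How these genes relate to the replication genes was not tested.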
